A study of Mus musculus with 18 samples.

Results

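Mature white adipocytes of the inguinal depot (iWAT, subcutaneous fat of the groin) were compared with those of the epididymal depot (eWAT, visceral fat beside the testis). Members were chosen by their source label, which gave 12 of the 18 RNA-seq samples of the series, 6 of iWAT adipocytes and 6 of eWAT adipocytes. All 12 came from wild type male C57BL/6J mice aged 16 weeks that were kept on regular chow. No transgene and no treatment is named for any of them. In both groups the fat was digested with collagenase, filtered, and the floating layer was collected as mature adipocytes, so that the preparation is a flotation and not a sort. The 5 mouse numbers 7, 11, 13, 14 and 15 occur in both groups, mouse 12 only in iWAT and mouse 8 only in eWAT. The depots were listed in different ways: iWAT files hold 53445 genes with merged exons, eWAT files hold 189660 single transcripts. A read of eWAT was counted on every transcript it touches. Where a row of the one kind and a row of the other describe the same stretch of exons under 1 symbol (27301 shared rows), the values can be compared directly, and 4920 of these rows had at least 10 reads in at least 6 of the 12 samples.

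White adipocytes store triglyceride and release fatty acids and hormones such as adiponectin and leptin. Subcutaneous and visceral depots arise from different precursors, and mature fat cells keep a memory of body position in the form of Hox and other patterning transcription factors. Inguinal fat is known for its capacity to form beige adipocytes, which burn fuel with the uncoupling protein Ucp1. Epididymal fat lies in the abdominal cavity, is covered by mesothelium, touches the epididymis and is rich in macrophages.

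The number of reads behind the RPKM values (reads per kilobase of row length and per 1000000 reads of the library) was between 22929576 and 32141048 in iWAT and between 26607733 and 34048018 in eWAT. The summed level of 20 adipocyte marker genes was between 51511 and 63478 RPM (reads per 1000000 reads of the library) in iWAT and between 31907 and 61136 in eWAT. In all such sums a gene of eWAT enters with its most-read transcript and a gene of iWAT with its merged row, so that eWAT is understated where reads fall on other transcripts. Some libraries stood apart. The eWAT sample of mouse 15 had the lowest adipocyte sum and the highest macrophage sum (26 genes), with 6665 RPM against 503 to 1497 in the other eWAT samples and 104 to 584 in iWAT. The eWAT samples of mice 14 and 15 had 383 and 332 RPM on 32 epididymis genes, whereas the other 10 samples had 7.22 or less, and 25 of these 32 genes had no read in any iWAT sample. The iWAT sample of mouse 11 had the highest sum of interferon-induced genes and that of mouse 14 the highest endothelial sum, 2337 RPM against 426 to 1082 in the other iWAT samples. The results that rest on these libraries are given with and without them.

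**Figure D1:**
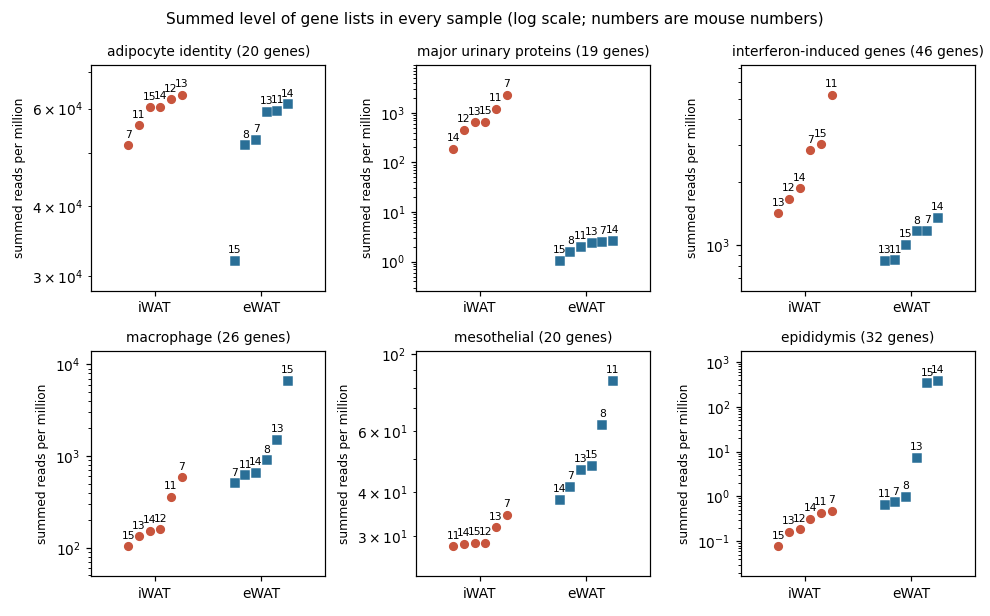
Summed RPM of 6 gene lists in each of the 12 samples (y axis, log scale; x axis, depot; each symbol is 1 sample and the number beside it is the mouse; eWAT genes enter with their most-read transcript). Major urinary protein genes separate the depots by far, the eWAT sample of mouse 15 is lowest for adipocyte genes and highest for macrophage genes, and the eWAT samples of mice 14 and 15 are the 2 highest for epididymis genes. Reads on overlapping rows of major urinary protein genes count more than once.

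As shown in the plot of list sums by sample, macrophage sums were mostly higher in eWAT, but the depots overlapped. The iWAT sample of mouse 7 had 583.7 RPM, and the eWAT sample of mouse 7 had 502.8. Reads on epididymis genes lay mainly in the eWAT samples of mice 14 and 15. The sums of mesothelial genes (20 listed) did not overlap, with 27.97 to 34.5 RPM in iWAT and 38.2 to 84.1 in eWAT. The part of these 3 lists in the other genes higher in eWAT was not tested. In such preparations, fewer cells of a type and less RNA per cell cannot be told apart.

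Of the 4920 shared rows tested, 589 (12%) differed between the depots at an adjusted p under 0.05 (edgeR quasi-likelihood test, Benjamini-Hochberg adjustment). iWAT was higher in 301 rows (6.12%) and eWAT in 288 (5.85%). The median log2 fold change of iWAT over eWAT was 0.0004 over the 4920 rows. With the mouse number as a block, 162 rows (3.29%) passed, and 161 of them were among the 589. Differences of at least 2-fold were found in 112 of the rows higher in iWAT and in 207 of those higher in eWAT, and differences of at least 8-fold in 11 and 49. Of the 589 rows, 293 are loci without a gene name, and 18 have the same reads in every sample as another called row and cannot be told apart. RPKM values of the 2 depots did not overlap in 332 rows (6.75%). Most genes have several eWAT transcripts and no shared row, and they were compared by bounds. Such a gene was called higher in iWAT only if its most-read iWAT row exceeded the sum of all its eWAT transcripts, and higher in eWAT only if its most-read eWAT transcript exceeded its summed iWAT rows. By bounds, 1946 of 17149 symbols (11.3%) were called, 406 (2.37%) higher in iWAT and 1540 (8.98%) higher in eWAT. The bounds hold where the rows of both files have the same outer ends. This was so for 14819 symbols, of which 343 (2.31%) were called higher in iWAT and 1329 (8.97%) higher in eWAT, and 604 (4.08%) were called with the block. Genes and lists described by bounds below are from these 14819 symbols, and each list count is to be read beside the shares of 2.31% and 8.97%. List counts on shared rows are to be read beside 6.12% higher in iWAT and 5.85% higher in eWAT. The fold of a bound is a fitted value with its own error. Since the bound for iWAT is the harder one to pass, the counts of the 2 directions are not to be set against each other.

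**Figure D2:**
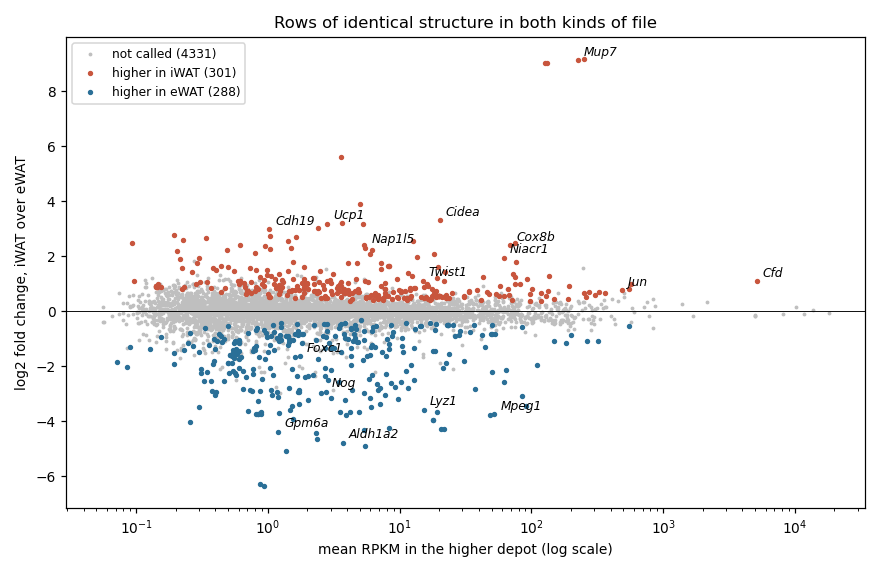
Log2 fold change of iWAT over eWAT (y axis) against the mean RPKM of the higher depot (x axis, log scale) for the 4920 shared rows tested, with 301 rows called higher in iWAT and 288 called higher in eWAT in color. The major urinary protein rows lie alone at the top near a log2 fold change of 9, while more rows of eWAT than of iWAT exceed an 8-fold difference.

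The largest differences belonged to major urinary protein (Mup) genes, which encode small pheromone carriers of the lipocalin family known from liver and urine. Mup7 (mm9 chromosome 4, 60079341 to 60083347, minus strand) had 46.3, 164 and 570.1 RPKM in iWAT (lowest, median and highest of 6 samples) and 0.171, 0.474 and 0.577 RPKM in eWAT. Every iWAT sample was thus far above every eWAT sample, although iWAT itself varied more than 10-fold. The log2 fold change was 9.13 (standard error 0.68, adjusted p = 1.97e-06). The rows of Mup17 and Mup19 have identical reads, with 27.4, 95 and 330.1 RPKM for Mup19 in iWAT and 0.0695, 0.287 and 0.403 in eWAT (log2 fold change 9.02, standard error 0.69, adjusted p = 2.14e-06). These genes are near-identical copies that lie side by side, so that reads of 1 member can be assigned to others and the rows are best read as a family. All 7 members tested by bounds (Mup2, Mup3, Mup7, Mup15, Mup17, Mup19 and a locus with a LOC number) were called higher in iWAT. They are not 7 separate observations. The rows of Mup2, Mup15, Mup17 and Mup19 overlap, with medians of 86.2, 83.4, 83.8 and 83.4 RPM in iWAT. The row of the LOC locus lies within that of Mup7. Over 19 Mup genes, the sum was highest in mice 7 and 11, with 2268 and 1211 RPM, and lowest in mouse 14, with 187, whereas the 6 eWAT samples had 1.04 to 2.63. Reads on overlapping rows enter this sum more than once.

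**Figure D3:**
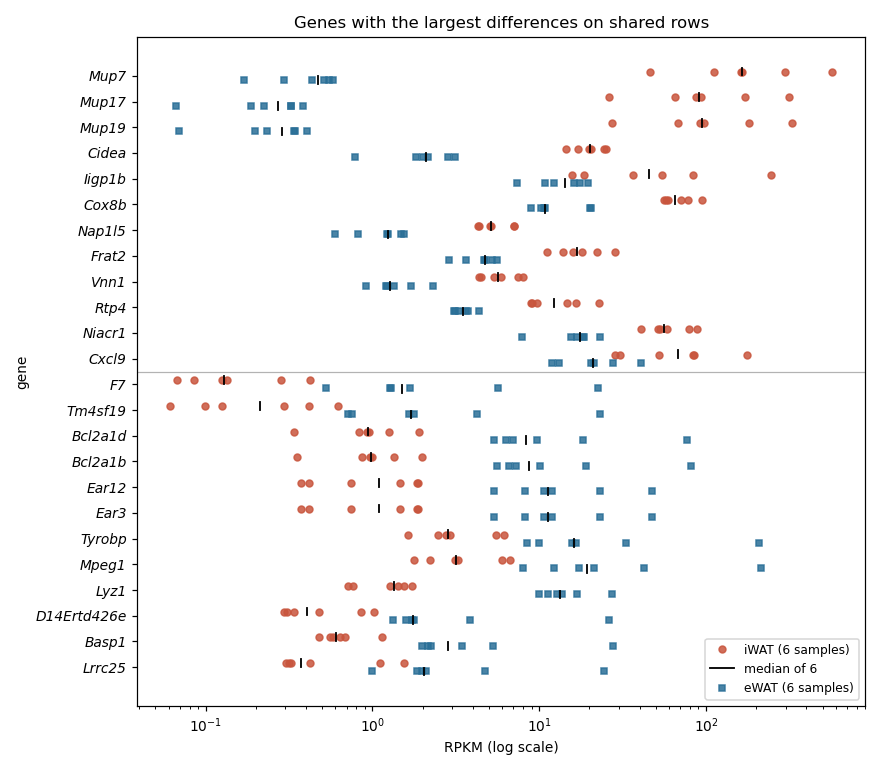
RPKM (x axis, log scale) of the 12 genes with the largest called difference in each direction on shared rows and at least 5 RPKM in the higher depot, with 1 symbol per sample and black ticks at the median of 6 samples (circles, iWAT; squares, eWAT). Cidea, Cox8b and the Mup genes have no overlap between depots, whereas Iigp1b and Cxcl9 overlap, and for most eWAT genes 1 square, the sample of mouse 15, lies far to the right.

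Genes of the beige and brown program were also higher in iWAT. Cidea, a lipid droplet protein of brown and beige fat, had 14.5, 20.2 and 25 RPKM in iWAT and 0.786, 2.08 and 3.13 RPKM in eWAT. The depots did not overlap, and Cidea was 9.92-fold higher in iWAT (log2 fold change 3.31, standard error 0.27, adjusted p = 3.42e-06, and 0.00119 with the block). Cox8b, the subunit isoform of cytochrome c oxidase found in brown fat and muscle, had 55.6, 65.0 and 94.3 RPKM in iWAT and 8.95, 10.8 and 20.4 RPKM in eWAT. It was 5.30-fold higher in iWAT without overlap (log2 fold change 2.41, standard error 0.23, adjusted p = 2.05e-05). Ucp1 was low in both depots, with 0.494, 2.76 and 5.77 RPKM in iWAT and 0.126, 0.346 and 0.549 RPKM in eWAT. The lowest iWAT sample lay within the range of eWAT, and Ucp1 was 9.02-fold higher in iWAT (log2 fold change 3.17, standard error 0.54, adjusted p = 0.00222, and 0.00793 with the block). Kcnk3, a potassium channel of brown adipocytes, was 1.88-fold higher (14.5, 16.1 and 19.7 against 5.74, 9.50 and 11.5 RPKM, adjusted p = 0.00152). All 4 are among 7 members of the list of thermogenic and beige genes with a tested shared row. Of all rows tested, 6.12% were higher in iWAT. None of the 7 was higher in eWAT, and their median log2 fold change was 0.91. All 4 kept the call with the block and without the eWAT samples of mice 14 and 15. By bounds, 4 of 17 members were higher in iWAT, beside 2.31% of all 14819 symbols, and 3 in eWAT, beside 8.97%. The 3 in eWAT were Ckb, Gamt and Slc6a8, which encode a creatine kinase, an enzyme of creatine synthesis and the creatine transporter. The 4 in iWAT were Ucp1, Cidea, Cox8b and the proton channel gene Otop1. Of these 4, Ucp1 lost the call by bounds with the block (adjusted p = 0.0538). Otop1 had 17.4, 20.5 and 27.1 RPM in iWAT and, with all transcripts summed, 4.04, 10.2 and 16.8 in eWAT. Ckb had 17.0, 19.98 and 22.0 RPM in iWAT and 27.4, 34.8 and 107.8 on its most-read transcript in eWAT. That bound was 2.28-fold higher in eWAT (adjusted p = 0.0161, but 0.0778 with the block). Slc6a8 was 2.68-fold higher by its bound, 1.68-fold without the eWAT sample of mouse 15, and adjusted p was 0.139 with the block. Ppargc1a, the coactivator of mitochondrial genes, had 5.32, 9.60 and 13.7 RPM in iWAT. In eWAT it had 1.74, 3.61 and 5.64 on its most-read transcript but 6.50, 13.6 and 21.3 over all transcripts, so its direction could not be called.

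Transcription factors that pattern the body differed in both directions, several by more than 10-fold. Shox2, a homeobox factor of limb patterning (chromosome 3, 66775649 to 66785693), had 16.3, 19 and 22.0 RPM in iWAT. Its 10 eWAT transcripts together had 0.690, 1.02 and 1.53 RPM, so that Shox2 was 19-fold higher in iWAT by this bound (adjusted p = 1.76e-10). Tbx15, a T-box factor of subcutaneous fat, had 8.82, 14 and 15.4 RPM in iWAT and at most 0.596 in any eWAT sample with all transcripts summed (log2 fold change 6.22, adjusted p = 2.95e-07). The bound was 74.4-fold, and 129.7-fold without the eWAT sample of mouse 13. The homeobox genes En1, Irx1, Irx2, Irx5 and Lhx8 and the basic helix-loop-helix gene Twist1 were also higher in iWAT, and none lost the call with the block. For Lhx8 the samples had 3.05, 4.58 and 8.87 RPM in iWAT against a sum of 0.338 at most in eWAT. The bound of En1 was 6.95-fold, and 11.1-fold without the eWAT sample of mouse 11, and that of Irx1 was 11.3-fold, and 18-fold without the eWAT sample of mouse 15. Twist1 has a shared row, on which it had 12.2, 14.7 and 18.5 RPKM in iWAT and 5.43, 7.39 and 8.15 RPKM in eWAT (log2 fold change 1.11, standard error 0.11, adjusted p = 2.37e-05).

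Other patterning factors were higher in eWAT. Foxc1, a forkhead factor of mesoderm, had 0.238, 0.552 and 0.908 RPKM in iWAT and 1.22, 1.77 and 2.21 RPKM in eWAT, without overlap (log2 fold change -1.63, standard error 0.25, adjusted p = 0.000938). Foxc2, its paralog, had 0.0851, 0.172 and 0.215 against 0.367, 0.505 and 0.937 RPKM (log2 fold change -1.68, adjusted p = 0.00225), at 6 to 16 reads per iWAT sample. Nr2f1, a nuclear receptor of patterning, had 0.348, 0.932 and 0.996 RPM in iWAT and 1.74, 3.63 and 4.90 on its most-read transcript in eWAT (log2 fold change of the bound -1.94, adjusted p = 0.000416). Eya1, Osr1 and Klf14 were also higher in eWAT, but lost the call with the block (adjusted p = 0.052 for Eya1, 0.0802 for Osr1 and 0.0806 for Klf14). On its shared row, Klf14 was called in 4 of the 12 fits that left out 1 sample, and Osr1 in 9. Among 27 developmental factors tested by bounds, 8 were higher in iWAT, beside 2.31% of all 14819 symbols, and 6 in eWAT, beside 8.97%. The numbers were 8 and 3 with the block, and 9 and 6 without the eWAT samples of mice 14 and 15.

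The Hox genes, which are expressed in clusters according to their order along the body axis, fell on both sides. Hoxc10 (chromosome 15, 102797223 to 102802324) had 19, 20.6 and 23.6 RPM in iWAT against 0.451, 1.68 and 1.97 for its summed transcripts in eWAT, a bound of 15.4-fold (adjusted p = 1.61e-08). Hoxa10 had 10.3, 16.0 and 19.4 against 0.617, 1.22 and 3.88 RPM, a bound of 10.4-fold (adjusted p = 2.34e-06). Hoxa9 had 4.84, 8.44 and 11.9 against 0.122, 0.558 and 1.12 RPM, a bound of 13.9-fold (adjusted p = 6e-07). The depots did not overlap in any of these 3. Hoxa6 and Hoxc9 were also called higher in iWAT, but overlapped with the bound of eWAT. Hoxc9 lost the call with the block (adjusted p = 0.0568), and Hoxa6 without the iWAT sample of mouse 11. Hoxc4, at the other end of the cluster that holds Hoxc10, had 2.49, 3.50 and 4.67 RPM in iWAT and 5.55, 11.4 and 15.3 on its most-read transcript in eWAT, and was higher in eWAT by a bound of 3.03-fold (adjusted p = 0.000267, and 0.0232 with the block). Hoxb5 was called in 5 of the 12 fits that left out 1 sample. Of 25 Hox genes tested by bounds, 5 were thus higher in iWAT, beside 2.31% of all 14819 symbols. In eWAT 2 were higher, a share near the 8.97% of all symbols. With the block the numbers were 4 and 1. None of 9 with a tested shared row was called. Hoxc8, which lies between Hoxc4 and Hoxc10, had 103.5, 139 and 160.4 RPM in iWAT and a most-read transcript of 74.4, 144 and 169.5 in eWAT, and was not called.

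**Figure D4:**
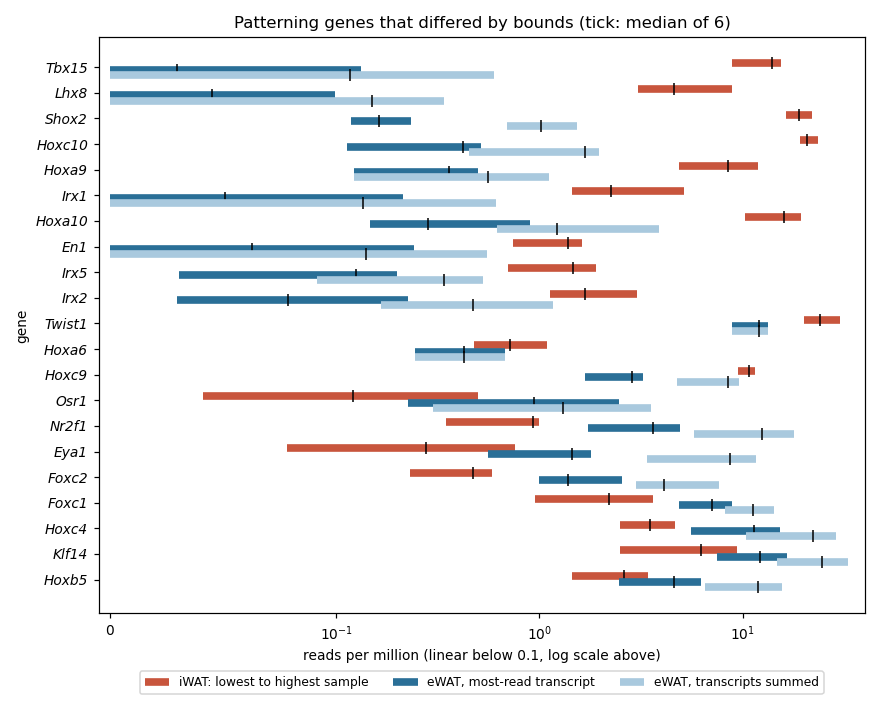
RPM (x axis, linear below 0.1 and log scale above) of the Hox and developmental transcription factor genes called by bounds, with bars from the lowest to the highest of 6 samples and ticks at the median. For Shox2, Hoxc10, Tbx15 and Lhx8 the iWAT bar lies to the right of both eWAT bars, whereas for Nr2f1, Foxc1, Foxc2 and Hoxc4 it lies to the left of the bar of the most-read eWAT transcript.

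Few genes of adipocyte identity and lipid metabolism were called by bounds, which can miss a moderate difference. Adiponectin (Adipoq) had 2062, 2587 and 2982 RPM in iWAT and 1121, 2407 and 3037 on its most-read transcript in eWAT and was not called (log2 fold change 0.21, adjusted p = 0.465 on that transcript). Of 17 adipocyte identity genes tested by bounds none was called. Of 4 with a shared row, 2 were called higher in iWAT, beside 6.12% of all rows tested. The median log2 fold change of the 4 was 0.51. The 2 called were the adipokine adipsin (Cfd) and the transcription factor Cebpa. Cfd had 4263, 4655 and 7772 RPKM in iWAT and 746, 2668 and 3725 RPKM in eWAT (log2 fold change 1.09, standard error 0.30, adjusted p = 0.0295). The depots did not overlap, the lowest value was that of eWAT of mouse 15, and Cfd lost the call with the block (adjusted p = 0.0897) and without any 1 of the eWAT samples of mice 8 and 14 and the iWAT samples of mice 7, 11 and 15. Cebpa was 1.49-fold higher in iWAT (249, 295 and 377 against 149.5, 197 and 279.7 RPKM, adjusted p = 0.0266, but 0.208 with the block). It lost the call without any 1 of the eWAT samples of mice 8 and 14 and the iWAT samples of mice 12 and 15. No member was called by bounds among 18 genes of fatty acid synthesis, 22 of glucose use and insulin signaling, and 60 of the respiratory chain and ATP synthase. None of the 9 respiratory chain genes with a tested shared row was called either, where the median log2 fold change was 0.17. Bounds leave a wide interval. Scd1, a fatty acid desaturase on the synthesis list, had a log2 fold change between -1.15 (all transcripts summed) and 0.78 (most-read transcript), and the summed level of the 20 listed genes overlapped between the depots. The log2 fold change of the glycolytic enzyme gene Aldoa lay between -3.02 and 0.12, and that of the cytochrome c oxidase gene Cox8a between -0.86 and 0.13.

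Among genes of triglyceride metabolism, Angptl4, an inhibitor of lipoprotein lipase, was called higher in iWAT (log2 fold change 0.70, adjusted p = 0.0299), but not with the block (adjusted p = 0.0843) or without any 1 of the eWAT samples of mice 8 and 15 and the iWAT samples of mice 7, 11 and 15. Mogat2, which joins a fatty acid to monoacylglycerol, had 1.95, 3.60 and 5.41 RPM in iWAT and 11.6, 12.3 and 17.1 on its most-read transcript in eWAT. Its bound was 3.61-fold higher in eWAT without overlap (adjusted p = 5.18e-05, and 0.00409 with the block). It was the only one of 19 members called by bounds. Of 13 genes of lipolysis and the lipid droplet only Cidea was called.

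A minority of the listed receptors and secreted factors differed. Niacr1, the receptor of nicotinic acid and beta-hydroxybutyrate that restrains lipolysis (chromosome 5, 124313579 to 124315525), had 40.9, 55.7 and 87.9 RPKM in iWAT and 7.83, 17.6 and 23.0 RPKM in eWAT. It was 3.84-fold higher in iWAT without overlap (log2 fold change 1.94, standard error 0.25, adjusted p = 0.000204, and 0.00446 with the block). The beta1-adrenergic receptor gene Adrb1 was 2.1-fold higher in iWAT (0.910, 1.19 and 2.19 against 0.331, 0.663 and 1.06 RPKM, adjusted p = 0.0168, but 0.0843 with the block). By bounds, the oxytocin receptor gene Oxtr was higher in eWAT, with 9.53, 36.1 and 50.2 RPM in iWAT and 76.2, 90.8 and 111.0 on its most-read transcript in eWAT (a bound of 2.77-fold, adjusted p = 0.00294). The purinergic receptor gene P2ry1 was also higher in eWAT, with 1.13, 2.91 and 3.63 against 4.99, 7.16 and 8.54 RPM (a bound of 2.62-fold, adjusted p = 0.00143). Both kept the call with the block. Of 28 receptors of adipocytes tested by bounds, 3 were higher in eWAT, a share near the 8.97% of all 14819 symbols, and none in iWAT. The third was Adora2b, which was called in 5 of the 12 fits that left out 1 sample.

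Angiotensinogen (Agt), the precursor of angiotensin, was the adipokine with the largest difference. It had 9.54, 13.3 and 21.5 RPM in iWAT and 61.6, 131.6 and 192 on its most-read transcript in eWAT. The bound of Agt was 8.82-fold higher in eWAT without overlap (log2 fold change -3.14, adjusted p = 1.35e-05, and 0.00111 with the block). Chemerin (Rarres2) and the activin subunit Inhbb were 1.43-fold and 1.58-fold higher in iWAT on shared rows (adjusted p = 0.0174 and 0.0175), with overlap between depots and adjusted p = 0.166 and 0.139 with the block. On shared rows, 3 of 8 adipokines were higher in iWAT, beside 6.12% of all rows tested, and 1 in eWAT, beside 5.85%. None was called with the block. The 1 in eWAT was Nmb, which encodes the peptide neuromedin B (adjusted p = 0.0378, but 0.136 with the block). It was called in 3 of the 12 fits that left out 1 sample. By bounds, 3 of 24 were higher in eWAT (Agt, Nmb and Metrnl), a share near that of all symbols, and only Agt with the block. Metrnl was called in 3 of the 12 fits that left out 1 sample, with a bound of 2.98-fold, and 1.64-fold without the eWAT sample of mouse 15.

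Retinoic acid is made from retinol by dehydrogenases. Of these, Aldh1a2 (chromosome 9, 71063596 to 71144050) had 0.0518, 0.130 and 0.209 RPKM in iWAT and 1.15, 2.55 and 10.04 RPKM in eWAT. The depots did not overlap, and Aldh1a2 was 27.6-fold higher in eWAT (log2 fold change -4.79, standard error 0.57, adjusted p = 0.00012) and 17.8-fold without the eWAT sample of mouse 15. Dhrs9, which oxidizes retinol, had 0.0218, 0.0885 and 0.201 RPKM in iWAT and 0.400, 0.638 and 10.6 RPKM in eWAT. Its difference was 25-fold with (adjusted p = 0.00876) and 7.34-fold without the eWAT sample of mouse 15, and it lost the call with the block (adjusted p = 0.108). Of 4 members of the retinoid and steroid list on shared rows, 2 were higher in eWAT and 1, Rarres2, in iWAT. The shares of all rows tested were 5.85% and 6.12%. Of 19 members by bounds, 3 were higher in eWAT, among them Aldh1a2 and Dhrs9. The sample of mouse 15, highest for both, also had the highest macrophage sum.

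Of 27 genes of Wnt, TGF-beta and BMP signaling tested by bounds, 10 were higher in eWAT, beside 8.97% of all 14819 symbols, and none in iWAT, beside 2.31%. The number was 8 with the block and 10 without the eWAT samples of mice 14 and 15. The median log2 fold change of the most-read transcript was -0.86, beside 0.04 over all 17149 symbols. Nog, which encodes the BMP antagonist noggin, has a shared row, with 0.0813, 0.275 and 0.858 RPKM in iWAT and 1.32, 2.64 and 4.13 RPKM in eWAT. It was 7.67-fold higher in eWAT without overlap (log2 fold change -2.94, standard error 0.40, adjusted p = 0.000377, and 0.00235 with the block). The ligand Bmp4 had 0.464, 0.851 and 2.05 against 2.14, 3.33 and 5.11 RPM (a bound of 3.29-fold, adjusted p = 0.00338). Tgfb3 had 7.62, 10.6 and 11.3 against 13.2, 20.6 and 23.02 RPM (a bound of 1.86-fold, adjusted p = 0.000538). The Wnt ligand genes Wnt2b, Wnt5b and Wnt11 were also higher in eWAT and kept the call with the block. Rspo1, another of the 10, is also on the mesothelial list. Beside these genes, 6 of 8 mesothelial and 7 of 15 stromal progenitor markers tested by bounds were higher in eWAT. On shared rows, the Wnt receptor gene Fzd1 was 1.59-fold higher in iWAT (adjusted p = 0.00551, but 0.0513 with the block).

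Of 36 genes of the extracellular matrix tested by bounds, 12 were higher in eWAT, beside 8.97% of all symbols, and none in iWAT, beside 2.31%. With the block the number was 8, and without the eWAT sample of mouse 15 it was 14 in eWAT and 1 in iWAT, with Timp2 among those lost (adjusted p = 0.0954). Fibronectin (Fn1) had 8.00, 19.6 and 46.4 RPM in iWAT and 81.8, 133 and 362 on its most-read transcript in eWAT, a bound of 6.95-fold without overlap (adjusted p = 0.00103). The collagen VI genes Col6a1 and Col6a2 were higher in eWAT by bounds of 1.80-fold and 1.70-fold (adjusted p = 0.00101 and 0.0044), again without overlap. Decorin (Dcn), a small proteoglycan of stroma, had 10.5, 22.4 and 41.0 against 47.8, 90.0 and 108 RPM (a bound of 3.25-fold, adjusted p = 0.00144). Loxl1, which crosslinks elastin, went the other way. It had 8.77, 11.4 and 15.2 RPKM in iWAT and 3.07, 4.79 and 5.84 RPKM in eWAT (2.61-fold higher in iWAT, log2 fold change 1.39, standard error 0.17, adjusted p = 0.000187, and 0.00335 with the block).

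Stromal progenitor markers moved in both directions beside the matrix genes. Dermatopontin (Dpt), a matrix protein of stromal progenitors, had 750.0, 1156 and 1250 RPM in iWAT and, with all transcripts summed, 299, 410.5 and 576 in eWAT (a bound of 2.61-fold, adjusted p = 4.17e-06). Among the 15 markers tested, 7 others were higher in eWAT (Pdgfra, Dpp4, Lum, Dcn, Anxa3, Mfap5 and Cxcr7), 3 of them also with the block and 4 without the iWAT sample of mouse 11. Pdgfra was called in 4 of the 12 fits that left out 1 sample, and Dpp4 and Mfap5 each in 6. The summed level of the 18 markers, was between 1079 and 1603 RPM in iWAT, where most of it was Dpt, and between 506 and 760 in eWAT on the most-read transcripts. Their part in the matrix result was not tested.

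Interferon-induced genes were examined as a list written after their values had been seen. Of 8 with a tested shared row, 5 were higher in iWAT, beside 6.12% of all rows tested, and none in eWAT, beside 5.85%. The median log2 fold change of the 8 was 1.23. Rtp4, a chaperone of receptors that interferon induces, had 8.88, 12.2 and 22.8 RPKM in iWAT and 3.10, 3.47 and 4.38 RPKM in eWAT, without overlap (log2 fold change 1.99, standard error 0.24, adjusted p = 0.00013, and 0.00335 with the block). The other 4, Cxcl9, Gbp2, Igtp and Ifit3, overlapped between depots and lost the call with the block (adjusted p between 0.0529 and 0.0944). Cxcl9, a chemokine of T cells, had 28.5, 67.7 and 176 RPKM in iWAT and 11.97, 20.9 and 41.0 in eWAT. Igtp, a GTPase of cell-autonomous defense, had 9.01, 16.2 and 45.9 RPKM in iWAT and 5.19, 6.39 and 9.02 in eWAT. The iWAT sample of mouse 11 was the highest for both, and also for Iigp1b, a GTPase of the same family, with 244 RPKM against 15.8 to 83.8 in the other iWAT samples. Iigp1b was 5.64-fold higher in iWAT (adjusted p = 0.0164, but 0.114 with the block) and 3.13-fold higher without that sample. Without it, the 5 listed genes were still called. By bounds only Isg15 of 42 was called, higher in iWAT (beside 2.31% of all symbols). The sum of 46 listed genes was between 1424 and 5200 RPM in iWAT and between 844 and 1358 on the most-read transcripts of eWAT, which does not set a direction, since reads on other eWAT transcripts are not in it.

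Promoters of these genes were searched for letters to which interferon-regulated factors are known to bind. The interferon-stimulated response element was searched as GAAA, any 2 bases and GAAA again, on both strands in the 250 bases upstream of the RefSeq gene start (build GRCm38.p6). It was found in 18 of 34 listed genes with a window (52.9%), 936 of all 27025 genes (3.46%), 49 of 1215 genes with a tested shared row (4.03%), 9 of 91 with a row higher in iWAT (9.89%) and 5 of 106 with a row higher in eWAT (4.72%). Of the 5 genes called on shared rows, the 3 whose window holds a match are shown, 5′ to 3′ on the strand of the gene, with matches in capitals: Gbp2 from chr3:142620413-142620662 (plus strand), Igtp from chr11:58199306-58199555 (plus strand) and Ifit3 from chr19:34583279-34583528 (plus strand).
Gbp2: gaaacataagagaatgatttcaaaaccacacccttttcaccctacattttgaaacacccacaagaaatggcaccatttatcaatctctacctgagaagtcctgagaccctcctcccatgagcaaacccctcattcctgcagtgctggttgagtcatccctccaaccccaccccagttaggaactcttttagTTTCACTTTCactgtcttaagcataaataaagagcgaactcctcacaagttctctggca
Igtp: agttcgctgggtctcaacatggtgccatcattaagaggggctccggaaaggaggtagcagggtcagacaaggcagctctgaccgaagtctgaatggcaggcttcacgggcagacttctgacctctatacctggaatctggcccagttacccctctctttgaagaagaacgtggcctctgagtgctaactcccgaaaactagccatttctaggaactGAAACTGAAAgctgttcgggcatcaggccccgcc
Ifit3: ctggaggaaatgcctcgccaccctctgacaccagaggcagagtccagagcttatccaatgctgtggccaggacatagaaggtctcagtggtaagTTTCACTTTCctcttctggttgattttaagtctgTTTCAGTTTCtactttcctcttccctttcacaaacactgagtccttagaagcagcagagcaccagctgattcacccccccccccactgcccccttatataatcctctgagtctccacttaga
Igtp holds the letters once as written and Gbp2 once in reverse complement, and Ifit3 holds the reverse complement 2 times. The window of Cxcl9 holds no match, and Rtp4 has no entry in the table of windows. A match describes letters and is not evidence of binding in these cells. The list was made of genes known to be induced by interferon. The 9 genes with a match among rows higher in iWAT include Gbp2, Igtp and Ifit3 of that list. The shares are therefore no test of a difference between the depots.

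Further genes higher in iWAT had no list in common. Nap1l5, an imprinted gene of a nucleosome assembly protein, had 4.32, 5.12 and 7.09 RPKM in iWAT and 0.596, 1.23 and 1.54 RPKM in eWAT (4.97-fold, adjusted p = 2.53e-05). Frat2, a Wnt pathway protein that binds GSK3, had 11.1, 17.0 and 28.6 against 2.90, 4.70 and 5.56 RPKM (4.24-fold, adjusted p = 7.42e-05). Vnn1, a pantetheinase, had 4.37, 5.63 and 8.00 against 0.909, 1.28 and 2.32 RPKM (4.22-fold, adjusted p = 7.42e-05). None of the 3 overlapped between depots, and all 3 kept the call with the block. By bounds, H2-Q10, a secreted class I histocompatibility gene known from liver, had 34.4, 58.4 and 69.7 RPM in iWAT and 4.09, 4.54 and 10.0 in eWAT (a bound of 10.3-fold, adjusted p = 3e-08), but it has close paralogs that may share reads.

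Of the 16 genes on the nerve and Schwann cell list, Cdh19 and Kcna1 were higher in iWAT, both at low levels. Cdh19, a cadherin of Schwann cells, had 0.753, 1.10 and 1.23 RPKM in iWAT and 0.0300, 0.156 and 0.183 RPKM in eWAT (log2 fold change 2.98, standard error 0.30, adjusted p = 2.29e-05, and 0.00177 with the block). Kcna1, a potassium channel of axons, had 0.134, 0.202 and 0.331 against 0.0111, 0.0401 and 0.0589 RPKM (log2 fold change 2.59, adjusted p = 0.000307). Both were free of overlap and were the 2 members of the list with a tested shared row. Of 6 tested by bounds they were the 2 higher in iWAT, and Uchl1 was higher in eWAT. Uchl1 lost the call with the block (adjusted p = 0.083) and without the eWAT samples of mice 14 and 15 (adjusted p = 0.0584). Mbp, a myelin protein gene, had 38.2, 48.9 and 54.5 RPM in iWAT and 27.5, 34.0 and 38.1 on its most-read transcript in eWAT, and was not called. The sum of the 16 listed genes overlapped, with 304 to 480 RPM in iWAT and 332 to 477 in eWAT.

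Most of the macrophage genes tested were higher in eWAT. Lyz1, a lysozyme, had 0.710, 1.35 and 1.72 RPKM in iWAT and 9.96, 13.3 and 27.4 RPKM in eWAT. It was 12-fold higher in eWAT without overlap (log2 fold change -3.59, standard error 0.31, adjusted p = 6.75e-06, and 0.00144 with the block), and 9.99-fold without the eWAT sample of mouse 15. Tyrobp, a signaling adaptor of myeloid cells, had 1.63, 2.84 and 6.13 RPKM in iWAT and 8.49, 16.2 and 208 RPKM in eWAT, where 208 belongs to mouse 15 and the next highest value is 33.0. Its difference was 13.6-fold with (adjusted p = 0.0111) and 4.5-fold without that sample (adjusted p = 0.00331), and it lost the call with the block (adjusted p = 0.18). Mpeg1, the pore-forming protein perforin-2, had 1.77, 3.19 and 6.67 against 7.99, 19.3 and 213 RPKM, and was 13.5-fold higher with and 5.01-fold higher without that sample. The rows of Bcl2a1b and Bcl2a1d, survival genes of myeloid cells, overlap and share reads (5.33, 8.32 and 77.4 RPKM for Bcl2a1d in eWAT, 0.340, 0.940 and 1.91 in iWAT, 19.7-fold higher with and 8.59-fold without that sample). All 6 macrophage genes with a tested shared row were higher in eWAT, beside 5.85% of all rows tested. The number was 5 without the sample of mouse 15 and 1 with the block. By bounds, 13 of 20 were higher in eWAT, 8 without that sample and 3 with the block. The genes lost without it were Emr1, Itgam, Msr1, Clec4d and Lilrb4, each of which was also lost without any 1 of the iWAT samples of mice 12, 13 and 15. Other listed genes were not called and overlapped, among them Mrc1 and Cd163. In mouse 7, Mrc1 had 73.7 RPM in iWAT and 31.85 on its most-read transcript in eWAT. Cd163 had 23.64 and 10.66.

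Other genes with the largest differences in this direction moved with the same sample. The choice of genes favors this, since a mean of at least 5 RPKM in the higher depot was required. Tm4sf19, D14Ertd426e and Lrrc25 were below 5 RPKM in every other eWAT sample and passed only through that of mouse 15. Their link to that sample is therefore not a separate observation. F7, coagulation factor VII, had 0.0670, 0.129 and 0.420 RPKM in iWAT and 0.524, 1.5 and 22.6 RPKM in eWAT, and was 30.0-fold higher with and 10.9-fold higher without mouse 15. Tm4sf19 was 20.1-fold and 6.54-fold higher, D14Ertd426e 11.1-fold and 3.59-fold, Basp1 10.4-fold and 4.25-fold, and Lrrc25 8.98-fold and 3.35-fold. Except for Lrrc25, none of them overlapped between depots, and all 5 lost the call with the block (adjusted p between 0.0766 and 0.248). Lrrc25 also lost it without any 1 of the iWAT samples of mice 12, 13 and 15. The eosinophil ribonuclease genes Ear3 and Ear12, whose rows are the same 471 bases, had 0.370, 1.10 and 1.87 RPKM in iWAT and 5.39, 11.3 and 47.7 RPKM in eWAT, 15.4-fold higher with and 9.95-fold without mouse 15, and kept the call with the block (adjusted p = 0.00335). By bounds, the macrophage elastase gene Mmp12 had 3.13, 6.68 and 10.7 RPM in iWAT and 20.4, 78.5 and 979 in eWAT (31.8-fold with, 9.94-fold without mouse 15). Atp6v0d2, a proton pump subunit of osteoclasts and macrophages, was 27.5-fold and 6.90-fold higher. Vsig8 was 24.5-fold and 9.09-fold, Il7r 23.6-fold and 7.29-fold, Clec7a 21.0-fold and 7.37-fold and Rnf128 20.7-fold and 5.65-fold higher with and without that sample. None of these 6 kept the call with the block (adjusted p between 0.0585 and 0.132). Slpi, a secreted protease inhibitor of epithelia, had 0, 0.0518 and 0.352 RPM in iWAT and 0.827, 4.37 and 7.94 in eWAT (adjusted p = 0.000107), with its lowest eWAT value above every iWAT sample. Its fold was 44.9, and 91.5 without the iWAT sample of mouse 11.

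Most mesothelial genes tested were higher in eWAT. Gpm6a, a membrane glycoprotein that marks mesothelium in fat, had 0.0372, 0.0468 and 0.0839 RPKM in iWAT and 0.192, 0.921 and 2.66 RPKM in eWAT (log2 fold change -4.37, standard error 0.55, adjusted p = 0.000191, and 0.00222 with the block). Upk3b, a uroplakin of mesothelium, had 5 reads over the 6 iWAT samples and 0.902, 6.75 and 17.0 RPM in eWAT. Against a floor of 3 reads in the shallowest iWAT library it was at least 61.1-fold higher in eWAT (adjusted p = 3.26e-05). Upk1b had no read in iWAT and 0.451, 1.44 and 2.83 RPM in eWAT, at least 11.4-fold above the same floor (adjusted p = 0.000579). Such floors cover counting error only. The highest values of Gpm6a, Upk3b and Upk1b were those of mouse 11, not of mouse 15. Of 8 mesothelial genes tested by bounds, 6 were higher in eWAT, 5 with the block and 7 without the samples of mice 14 and 15. Lrrn4, which held most of the mesothelial reads of iWAT, was not called. It had 23.1, 26.1 and 29.3 RPM in iWAT and 12.4, 19.4 and 22.9 on its most-read transcript but 26.5, 40.2 and 61.2 over all transcripts in eWAT. Of the 20 listed, 7 had no read in any iWAT sample. Among 13 endothelial genes 1 was higher in eWAT (Vwf), among 10 of pericytes and smooth muscle 2 (Tagln and Myh11) and among 3 of epithelium 1 (Prlr). None of these 4 kept the call with the block (adjusted p between 0.0585 and 0.0986), while the smooth muscle actin gene Acta2 was called higher in eWAT with the block but not without it (adjusted p = 0.0686). None of the epididymis genes was tested, as too few samples held enough of their reads. None of 7 skeletal muscle, 4 neutrophil and mast cell and 1 lymphocyte genes was called.

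A minority of the listed immediate-early and acute-phase genes, which respond quickly to stimuli, differed, and in both directions. Jun, an AP-1 subunit, had 362, 501 and 567 RPKM in iWAT and 186.5, 309 and 355 RPKM in eWAT (1.70-fold higher in iWAT, log2 fold change 0.77, standard error 0.16, adjusted p = 0.00791). Jun, Jund and Btg2 were higher in iWAT among 8 members on shared rows, beside 6.12% of all rows tested. None of these kept the call with the block (adjusted p between 0.085 and 0.15). By bounds, Egr3 and Nr4a3 of 27 were higher in eWAT (2.47-fold and 2.39-fold). Both lost the call without the eWAT samples of mice 14 and 15 (adjusted p = 0.055 and 0.065), and Nr4a3 also with the block (adjusted p = 0.0848). Among acute-phase, complement and chemokine genes, Ccl7 and Cfb of 7 were higher in iWAT on shared rows. They were called in 6 and 5 of the 12 fits that left out 1 sample, and neither with the block. By bounds among 21, C7 was higher in eWAT (log2 fold change -1.83) and Ptx3 was higher in iWAT (2.30-fold). Ptx3 was called in 5 of the 12 fits that left out 1 sample. Of 29 cAMP signaling genes 3 were higher in eWAT by bounds (Adcy7, Pkib and Akap12), a share near the 8.97% of all symbols. Adcy7 was 10.9-fold and Pkib 12.01-fold higher, and 3.76-fold and 3.64-fold without the eWAT sample of mouse 15, and none of these kept the call with the block. Of 16 imprinted and IGF genes 1 was higher in eWAT, Ndn, which was called in 3 of the 12 fits that left out 1 sample. None of 13 clock genes was called.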

How the data were processed

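RNA-seq libraries of mature adipocytes (NEBNext Ultra kit, whose libraries do not mark strand) were read on a HiSeq 2500. The submitters' processing notes name cutadapt 1.16, HISAT2 2.1.0 and mm9, and per the study's methods the authors obtained values per annotated row with Genomatix software. The annotation version is not given in the sources used here. The deposited count of reads per row is raw, and the deposited RPKM values equal these counts divided by row length and by 1 total per sample. Each file holds 1 sample, and groups follow the source label.

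Counts of shared rows were tested with edgeR 4.0.16 (quasi-likelihood, TMM factors from the rows tested, library size from the reads behind RPKM, 12 samples, no block) in R 4.3.3, keeping rows that reached 10 reads in 6 or more samples, and called at an adjusted p under 0.05. TMM factors were between 0.942 and 1.051. Symbols with several transcripts were tested by 2 bounds with the factors of the shared rows. Tested on simulated data of the shared rows, the fit recovered 58 of 100 changes of log2 1 and 94 of 100 of log2 2, and called 6 of 4720 unchanged rows. Named genes are the 12 per direction with the largest called change and a mean of at least 5 RPKM in the higher depot, 10 per direction by bounds, up to 6 called members per list in order of RPKM (where none is called, the member with the highest RPKM), and Adipoq. Unnamed loci are counted only. Further list members and Ppargc1a and Hoxc8 were chosen after their values were seen. Members and lists were chosen with earlier results of these data known. The sources do not say whether samples of a group came from separate preparations beyond their mouse numbers.

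The mouse number in the titles was read as the animal, which pairs the depots. Deviations of same-numbered samples from their group means correlated at 0.183, -0.284, 0.119, -0.147 and -0.182 for mice 7, 11, 13, 14 and 15. Alternatives were DESeq2 1.42.0, limma 3.58.1 on log2(RPKM + 0.1) and log2(RPKM + 1), other scalings and filters, the mouse as a block, length correction, and leaving out samples. Results for some genes of the lists are not reported here.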

Additional observations from a re-analysis of the deposited data

Results flagged for a closer look

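Among 138 measures, 28 had 1 sample far from the other 5 of its group by Dixon's criterion. An expected 1 in 20, or 6.9, holds for normally distributed measures that were not chosen by their values. Many of these genes were chosen for large differences, and the measures share the same samples. The 28 are therefore not to be set against 6.9.

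The eWAT sample of mouse 15 was the far one in most of the 28. It had 6665 RPM on macrophage markers (the next sample had 1497), 15.71 on lymphocyte markers and 31910 on adipocyte markers, the lowest of 6. It was the highest of eWAT for F7 (22.55 RPKM), Tm4sf19 (23.08), Bcl2a1d (77.37), Bcl2a1b (80.85), Tyrobp (208), Mpeg1 (213.1), D14Ertd426e (26.27), Basp1 (27.63), Lrrc25 (24.37), Clec4d (17.08), Aldh1a2 (10.04) and Dhrs9 (10.58 RPKM).

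The iWAT sample of mouse 11 was the highest of iWAT for Iigp1b (243.7 RPKM), Gbp2 (156.8), Igtp (45.86), Cfd (7772) and Basp1 (1.137 RPKM), and had 11.41 RPM on lymphocyte markers. The iWAT sample of mouse 14 had the most reads on endothelial markers (2337 RPM) and the fewest on nerve and Schwann cell markers (304.3 RPM). The iWAT sample of mouse 12 was highest for Adrb1 (2.186 RPKM) and Nog (0.858 RPKM). In eWAT, the sample of mouse 13 was highest for Nmb (1.56 RPKM) and Cfb (111.6 RPKM). That of mouse 14 had 61.82 RPM on the list named for mammary or skin epithelium, of which Prlr held 35.44. The listed genes Csn2 and Csn3 had no read in it. Epcam, Krt5, Krt14, Cldn3 and Cldn4 were highest in the eWAT samples of mice 14 and 15, as was the epididymis sum.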

How the results depend on the processing

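On shared rows, 589 rows were called. With the replicate block of mouse number the count was 162 (90 higher in iWAT, 72 in eWAT). Without the low-count filter 496 rows were higher in eWAT, without the eWAT samples of mice 14 and 15 197 were higher in iWAT, and at an absolute log2 fold change of at least 1 the count was 319 (112 in iWAT). Leaving out 1 sample gave 432 to 638 rows (226 to 313 in iWAT, 198 to 325 in eWAT). DESeq2 called 693, RLE factors 576 and limma with a pseudocount of 0.1 or 1 called 536 or 470, all within 1.5 times.

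By bounds, 1946 symbols were called, and leaving out 1 sample gave 1496 to 2261 (361 to 447 in iWAT, 1119 to 1814 in eWAT). The block gave 724 (410 in eWAT) and the log2 limit of 1 gave 1238 (162 in iWAT). Counts outside 1.5 times came from these settings. Factors recomputed on all symbols gave 7825 (6153 in iWAT), the most-read transcript 3892 without (2369 in iWAT) and 8789 with length correction (996 in iWAT, 7793 in eWAT), summed transcripts 14452 (14046 in eWAT), and transcripts of nearly the merged length 1143 (650 in eWAT), the last chosen after seeing the data. The median log2 fold change was 0.04 for most-read and -1.87 for summed transcripts, so genes were called by bounds, and sums or medians on the most-read transcript are descriptions. The cause of the other shifts was not tested.

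Of 57 genes named on shared rows none changed direction, and the block ended 32 calls. It ended 27 of 65 by bounds. Leaving out the eWAT samples of mice 14 and 15 ended 10 of these 65 (Metrnl, Adora2b, Pkib, Ndn, Timp2, Egr3, Nr4a3, Ptx3, Mfap5 and Uchl1).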
